A study of Drosophila melanogaster with 9 samples.

Results

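The genes described here encode 10 enzymes of glycolysis and lactate fermentation in *Drosophila*: *Hex-A*, *Pgi*, *Pfk*, *Ald*, *Tpi*, *Gapdh1*, *Gapdh2*, *Pgk*, *Eno* and *ImpL3*. They were taken from the table by their symbols, and all 10 were found among the 16492 gene symbols of the raw count table and passed the filter on low counts. Their RNA was measured in GFP-positive cells sorted from wing imaginal discs, the larval epithelia that give rise to the adult wings. The control (gfp) was *w/+; +/+; dpp-gal4, UAS-gfp/+*, the STAT supercompetitors (hop) carried *UAS-hop* over the *dpp-gal4, UAS-gfp* chromosome, and the Myc supercompetitors (Myc) carried *UAS-myc* over it. All 3 genotypes therefore shared *dpp-gal4* and *UAS-gfp*, and *dpp-gal4* limits the transgenes to a stripe of anterior cells along the compartment border. Hop is the JAK kinase that activates the transcription factor Stat92E, and Myc is a transcription factor that promotes growth. Discs were pooled, with at least 60 from wandering larvae of about 110 to 115 hr AED (after egg deposition) for each library, and each genotype has 3 libraries. The study asked which transcripts differ between these winner cells, which outcompete their wild-type neighbors, and control cells.

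Glycolysis converts glucose to pyruvate in the cytosol. Its first part spends ATP to make a sugar with a phosphate at each end, which aldolase splits, and its second part regains ATP at phosphoglycerate kinase and pyruvate kinase. Lactate dehydrogenase then reduces pyruvate to lactate and regenerates the NAD+ that glyceraldehyde-3-phosphate dehydrogenase needs, while pyruvate that enters mitochondria feeds the TCA cycle. In flies, glycolytic genes and *ImpL3* are known to be expressed at high levels in growing larvae. Transcript levels were measured here, and neither enzyme activity nor metabolites.

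The genes lie on 5 chromosome arms in the BDGP6 (dm6) annotation. *Hex-A* (FBgn0001186), a hexokinase that phosphorylates glucose, lies on chromosome X from 9585675 to 9589813. *Pgi* (FBgn0003074), glucose-6-phosphate isomerase, lies on 2R from 8910900 to 8914069. *Pfk* (FBgn0003071), phosphofructokinase, lies on 2R from 10109740 to 10117457 and encodes the enzyme of the committed step. *Ald* (FBgn0000064, annotated as Ald1), the aldolase, lies on 3R from 26254069 to 26261591, and is a different row of the table from *ald* in lower case, which is the kinase gene *Mps1*. *Tpi* (FBgn0086355), triose phosphate isomerase, lies on 3R from 30132981 to 30134599. *Gapdh1* (FBgn0001091) on 2R from 7791901 to 7793380 and *Gapdh2* (FBgn0001092) on X from 15868145 to 15869661 both encode glyceraldehyde-3-phosphate dehydrogenase. These copies are similar in sequence, so the split of reads between them is uncertain. *Pgk* (FBgn0250906), phosphoglycerate kinase, lies on 2L from 2746880 to 2753068, and *Eno* (FBgn0000579), enolase, on 2L from 1724768 to 1729636. *ImpL3* (FBgn0001258, annotated as Ldh), lactate dehydrogenase, lies on 3L from 6259105 to 6262694. Exons of 3 of the genes overlap a gene on the opposite strand: *Eno* shares 362 exon bases with *Rrp40*, *Ald* 338 with an antisense RNA and *Pgk* 65 with *Cwc25*. The strand setting of the counting is not given in the sources used here, so reads from these stretches cannot be assigned with certainty.

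The libraries hold 5110634 to 6104490 counts. The transgenes were seen where the labels place them: *hop* was 18.3-fold higher in hop than in gfp (log2 fold change 4.20, edgeR adjusted p = 2.74e-10) and *dm*, the gene for Myc, was 2.63-fold higher in Myc (1.39, adjusted p = 0.000225). Markers of the anterior stripe (*dpp*, *ptc*, *ci*) summed to 1487 to 2090 CPM (counts scaled to library size by TMM, as in all levels below) and those of the posterior compartment (*en*, *hh*, *inv*) to 72.0 to 133 CPM. The library Myc 1 stood apart from the others of its genotype: its Spearman correlations across all symbols were 0.954 and 0.961 with Myc 2 and Myc 3, whereas other pairs of the same genotype had 0.969 to 0.980. Nothing in the sources says whether libraries came from separate crosses, so p-values measure only the spread between these samples. With 3 libraries against 3, an exact permutation test of a single value cannot go below p = 0.1, and tests were therefore taken from the fit across all 12741 genes tested.

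Most of these genes were expressed well above the typical gene of the sorted cells. Per kilobase of exon, the median of the 10 genes in gfp was 30.7 CPM per kb, against 8.28 over 12585 tested genes with a known exon length. *Gapdh2* was highest at 120 ± 6.46 (SD, n = 3), above 97.9% of those genes. *Gapdh1* followed at 56.7 ± 6.35, so both copies of the same activity headed the order, and their ranges did not overlap, although the split of reads between them is uncertain. The place of *Gapdh1* rests on the division by exon length. Its gfp mean of 83.9 CPM lay below those of *Ald* (124.9), *Eno* (114.5) and *Pfk* (108.3). *Pgk* (34.6 ± 4.16), *Ald* (32.8 ± 4.72), *Eno* (30.8 ± 1.35), *Tpi* (30.7 ± 2.18) and *Pfk* (24.7 ± 3.42) came next, and neighbors in this stretch overlapped in range. *Hex-A* (18.4 ± 0.876) and *Pgi* (17.7 ± 1.40), which act on the sugar before it is committed to glycolysis, also overlapped each other. *ImpL3*, the lactate dehydrogenase, was last in all 3 genotypes, with 7.08 ± 1.79 CPM per kb in gfp, and lay above only 44.1% of the tested genes. Its counts were also the lowest, from 67 to 119 per library, and the 67 in gfp 2 has an exact 95% Poisson interval of 51.9 to 85.1, which covers counting error only.

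**Figure D1:**
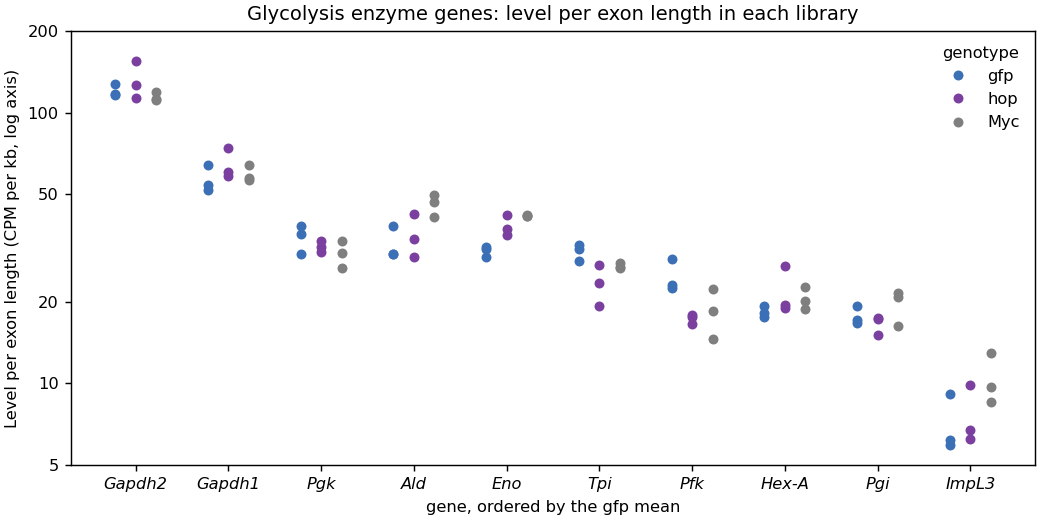
Level of each gene per kilobase of exon (CPM per kb, log axis) in each of the 9 libraries, with genes ordered by their gfp mean and 1 point per library (blue, gfp; purple, hop; gray, Myc). *Gapdh2* and *Gapdh1* lie above the other 8 genes and *ImpL3* below them in every genotype. By its mean, *Pfk* drops from the seventh place in gfp to the eighth in hop and the ninth in Myc. Its range overlaps that of *Pgi* in hop, and the ranges of *Hex-A*, *Pgi* and *Pfk* overlap in Myc, so its place in Myc is not resolved.

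In the preparatory part of the pathway, *Pfk* had the lowest levels relative to control. Its levels were 98.4, 101 and 126 CPM in gfp 1 to 3. They were 78.1, 77.2 and 72.7 CPM in hop and 63.8, 98.1 and 80.8 CPM in Myc. Every hop and every Myc library thus lay below every gfp library, although Myc 2 lay only just under gfp 1. In hop the fold was 0.702 (log2 fold change -0.51, SE 0.160, 95% interval of the fold 0.554 to 0.888), and it did not pass the threshold (edgeR adjusted p = 0.0649). Over 21 alternative analyses the adjusted p ranged from 0.0204 to 0.268 and was under 0.05 in 5. Among them were the fit without Myc 1 (0.0264) and the fit without both gfp 1 and Myc 1 (0.0252). Myc 1 is a library of neither group, which enters through the shared spread, the scaling and the set of genes tested. In Myc the fold was 0.746 (-0.42, SE 0.159, interval 0.589 to 0.944, adjusted p = 0.228), with adjusted p from 0.119 to 0.572 over the alternatives. Pfk is the main control point of glycolysis, at which ATP and fructose-2,6-bisphosphate act on the enzyme itself.

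*Ald* and *Tpi* act in succession, with aldolase splitting the sugar. Their fitted differences from control had opposite signs in hop and in Myc, but neither gene was called. *Ald* measured 115, 114 and 146 CPM in gfp. It measured 112, 130 and 161 CPM in hop and 156, 178 and 189 CPM in Myc. All Myc libraries were above all gfp libraries, whereas hop spanned the gfp range. In Myc the fold over gfp was 1.40 (log2 0.48, SE 0.151, interval 1.12 to 1.75), and the test was not passed (adjusted p = 0.129, range over the alternatives 0.0249 to 0.433, under 0.05 only with the replicate number as a block). *Tpi* measured 49.0, 43.9 and 50.4 CPM in gfp. It measured 36.4, 30.0 and 42.8 CPM in hop and 41.5, 42.0 and 43.4 CPM in Myc. Both sets of winner cells lay below control, but hop 3 and Myc 3 were close to gfp 2. The fold was 0.762 in hop (-0.39, SE 0.167, interval 0.595 to 0.975, adjusted p = 0.159, range 0.10 to 0.452) and 0.884 in Myc (adjusted p = 0.716).

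The first enzymes of the pathway, *Hex-A* and *Pgi*, overlapped between all genotypes. *Hex-A* ranged from 73.0 to 80.1 CPM in gfp, from 78.5 to 112 in hop and from 78.1 to 94.0 in Myc, and the 112 CPM came from hop 3 alone. Without that library the fitted difference between hop and Myc turned from 0.09 to -0.09 on the log2 scale. *Pgi* ranged from 41.2 to 47.6 CPM in gfp, from 37.2 to 42.7 in hop and from 40.2 to 52.9 in Myc. The lowest adjusted p for these genes was 0.337, for *Hex-A* in hop against gfp (fold 1.19, interval 0.946 to 1.49).

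In the second part of the pathway, enolase was the gene with levels above control in both kinds of winner cell. *Eno* measured 116, 109 and 118 CPM in gfp. It measured 131, 138 and 155 CPM in hop and 156, 155 and 154 CPM in Myc. Neither set overlapped control, and the coefficient of variation of the 3 Myc libraries was 0.813%. Counting error alone gives a wider spread at their 733 to 943 counts, so this closeness says little about the spread between samples. In Myc the fold was 1.35 (log2 fold change 0.44, SE 0.114, interval 1.14 to 1.60), which fell just short of the threshold (edgeR adjusted p = 0.0588). Over the alternatives the adjusted p ranged from 0.0105 to 0.276 and was under 0.05 in 7, among them DESeq2 (0.0105) and the fits without hop 1 (0.0362) or hop 3 (0.0401), which are libraries of neither group. In hop the fold was 1.24 (0.30, SE 0.114, interval 1.04 to 1.46, adjusted p = 0.110), and no alternative brought it under 0.05 (range 0.0665 to 0.329). Enolase makes phosphoenolpyruvate, the substrate of pyruvate kinase.

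The other genes of the second part stayed close to control. *Gapdh1* ranged from 76.9 to 94.6 CPM in gfp, from 86.4 to 110 in hop and from 83.4 to 94.9 in Myc. *Gapdh2* ranged from 167 to 184 CPM in gfp, from 164 to 224 in hop and from 160 to 173 in Myc. Each pair of genotypes overlapped for both copies, and the highest value of both again came from hop 3. *Pgk* ranged from 63.3 to 80.5 CPM in gfp, from 64.5 to 71.0 in hop and from 56.2 to 70.9 in Myc. These 3 genes had 95% intervals of the fold within 0.704 to 1.40 in every comparison, so that differences of 1.5-fold lie outside them.

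*ImpL3*, the lactate dehydrogenase, was too variable for a narrow statement. It measured 17.7, 11.5 and 12.0 CPM in gfp. It measured 19.1, 13.1 and 12.1 CPM in hop and 18.8, 25.1 and 16.6 CPM in Myc. The Myc mean of 20.2 ± 4.40 CPM (SD, n = 3) lay above the gfp mean of 13.7 ± 3.47, but gfp 1 lay above Myc 3. The fold in Myc was 1.47 with an interval from 0.987 to 2.18 (edgeR adjusted p = 0.378), and in hop it was 1.08 with an interval from 0.722 to 1.60 (adjusted p = 0.846). Both no difference and a 2-fold difference lie within the interval for Myc.

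**Figure D2:**
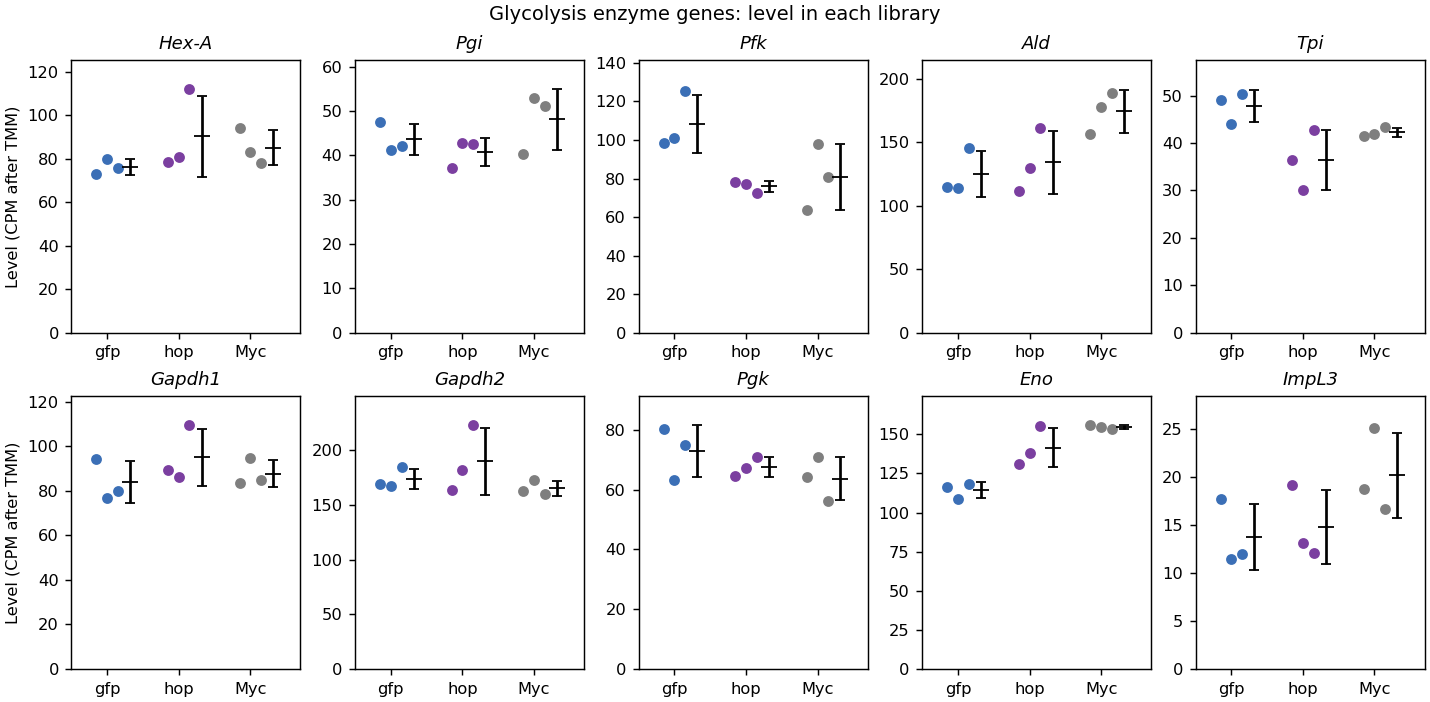
Level of each of the 10 genes (CPM after TMM scaling, axes from 0) in the 3 libraries of gfp (blue), hop (purple) and Myc (gray), 1 point per library in the order of the labels, with the mean and SD in black beside them. *Eno* lies above control and *Pfk* and *Tpi* below it without overlap in both hop and Myc, *Ald* lies above control in Myc, and the remaining genes overlap control. Over all tested genes, 14.8% lay wholly above control and 16.5% wholly below it in hop, and 10.8% and 10.4% in Myc. None of the 10 genes was called by edgeR.

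None of the 10 genes was called in hop against gfp by edgeR (adjusted p under 0.05), nor by DESeq2 or limma-voom. Over all tested genes 3.58% were called higher and 3.56% lower in this comparison. At an unadjusted p under 0.05 there were 3 genes, *Pfk*, *Tpi* and *Eno*, against 25.0% of all genes. Libraries did not overlap for 1 gene above control, *Eno*, against 14.8% of all genes, and for 2 genes below it, *Pfk* and *Tpi*, against 16.5%. The share of members was thus near the background on each of these counts. Fitted log2 fold changes ran from -0.51 (*Pfk*) to 0.30 (*Eno*), 6 above 0 and 4 below, with a median of 0.10 beside -0.02 over all genes. The 95% intervals lay within 1.5-fold of control for 7 of the 10 genes and within 2-fold for all 10, with outermost bounds of 0.554 and 1.60.

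In Myc against gfp, again none of the 10 genes was called by edgeR or limma-voom, and 1, *Eno*, was called by DESeq2. The background of calls was 2.21% higher and 0.447% lower. At an unadjusted p under 0.05 there were 3 genes, *Eno*, *Ald* and *Pfk*, against 14.2% of all genes. Libraries did not overlap for *Ald* and *Eno* above control, against 10.8% of all genes, and for *Pfk* and *Tpi* below it, against 10.4%. The log2 fold changes ran from -0.42 (*Pfk*) to 0.55 (*ImpL3*), 6 above 0 and 4 below, with a median of 0.10 beside -0.04 over all genes. The intervals lay within 1.5-fold for 6 genes and within 2-fold for 9, the exception being *ImpL3*. This comparison shares its control libraries with that of hop against gfp, so the likeness of both sets of values, in *Eno*, *Pfk* and *Tpi*, is not independent.

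In hop against Myc, the control libraries entered through the spread shared by all 9 libraries, the scaling and the set of genes tested. None of the 10 genes was called by edgeR, DESeq2 or limma-voom, beside 3.34% of all genes higher and 3.24% lower. The only gene at an unadjusted p under 0.05 was *Ald*, with a fold of 0.770 in hop relative to Myc (log2 fold change -0.38, SE 0.151, interval 0.616 to 0.964, adjusted p = 0.143, range 0.0371 to 0.383, under 0.05 only with the replicate block), and 24.7% of all genes met that threshold. No member had libraries that did not overlap, where 11.4% of all genes lay wholly above and 13.1% wholly below. The intervals lay within 1.5-fold for 8 of 10 genes and within 2-fold for 9, with *ImpL3* again the exception (0.495 to 1.09).

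**Figure D3:**
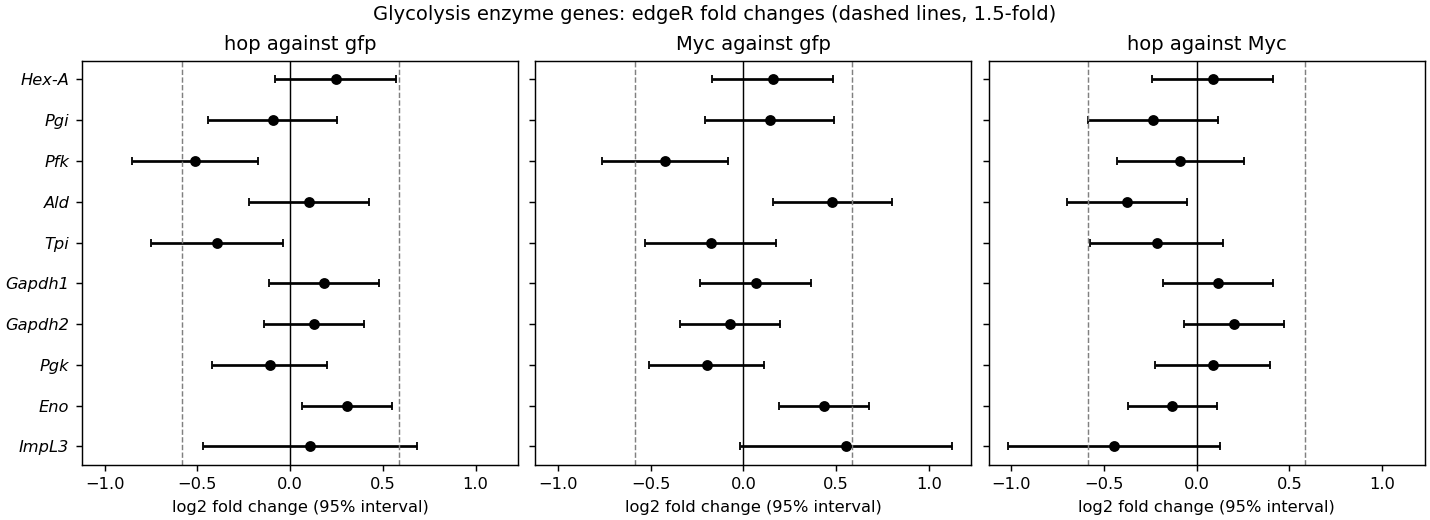
Log2 fold change of each gene with its 95% interval from the edgeR fit, with 1 panel for each of the 3 comparisons (dashed lines, 1.5-fold in either direction; solid line, no difference). No gene passed an adjusted p of 0.05 in any panel, and the widest intervals belong to *ImpL3*, the gene with the fewest counts.

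The 10 genes together summed to 860 ± 50.6 CPM in gfp (SD, n = 3), 887 ± 102 in hop and 922 ± 46.0 in Myc, and the ranges (808 to 910, 810 to 1003 and 881 to 972) overlapped. Their share of a library, by raw counts, was 0.0790% to 0.101%. Ratios within a library need no scaling between libraries, and those given here were picked after the values had been seen, so they are a description with no test. *Eno* counts divided by *Pfk* counts were 1.18, 1.08 and 0.944 in gfp. They were 1.68, 1.79 and 2.13 in hop and 2.45, 1.58 and 1.90 in Myc. Control cells had nearly equal counts of the 2 genes, and all 6 libraries of winner cells had more *Eno* than *Pfk* by at least 1.58 to 1. In both hop and Myc, *Eno* lay wholly above control and *Pfk* wholly below it. The separation of their ratio therefore follows from those levels and is no further result. How often ratios of other gene pairs separate was not examined. *Ald* counts divided by *Tpi* counts were 2.34, 2.60 and 2.89 in gfp. They were 3.07, 4.32 and 3.77 in hop and 3.77, 4.23 and 4.36 in Myc, without overlap with control. In Myc this too follows from the levels, with *Ald* wholly above control and *Tpi* wholly below it. The ratio of *Gapdh2* to *Gapdh1* lay between 1.79 and 2.30 in gfp, between 1.84 and 2.11 in hop and between 1.82 and 1.95 in Myc, so the balance of the copies overlapped in all genotypes. The ratio of *Ald* to *Pfk* counts was computed as well. It lay between 1.13 and 1.17 in gfp, between 1.43 and 2.22 in hop and between 1.81 and 2.45 in Myc, where the separation again follows from the levels of both genes.

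**Figure D4:**
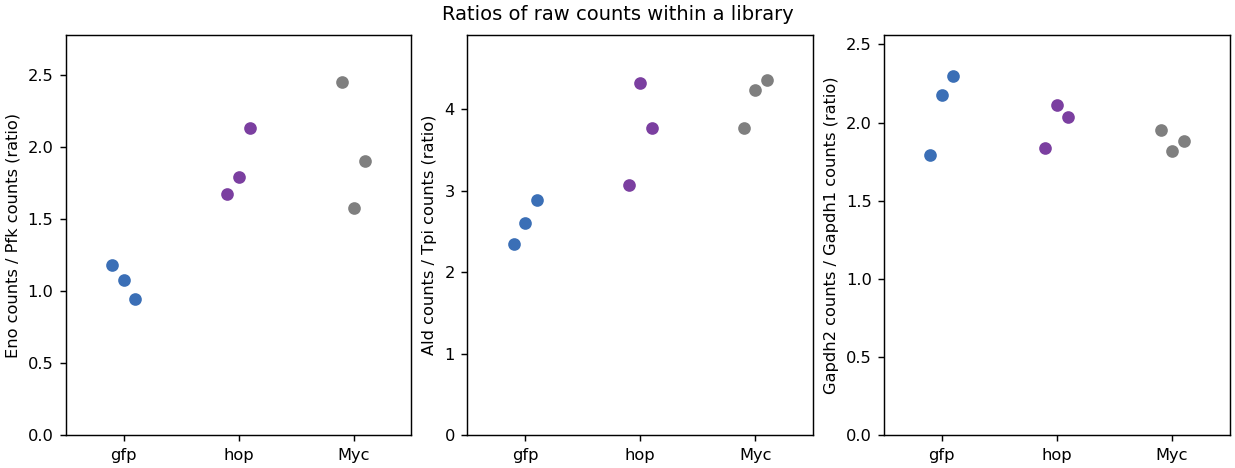
Ratio of raw counts of *Eno* to *Pfk*, *Ald* to *Tpi* and *Gapdh2* to *Gapdh1* in each library (1 point per library, axes from 0; blue, gfp; purple, hop; gray, Myc). The first ratio is 0.944 to 1.18 in gfp and 1.58 to 2.45 in the other libraries, the second is 2.34 to 2.89 against 3.07 to 4.36, and the third overlaps between genotypes. The separation of the first ratio, and of the second in Myc, follows from the levels of the single genes.

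Correlations between the genes of the pathway over the libraries were of both signs. Among the 45 pairs of members, Pearson correlations of log2 CPM over the 9 libraries ran from -0.679 for *Pfk* and *Eno* to 0.792 for *Ald* and *Eno*, with a median of 0.174 and 18 pairs below 0. The libraries share their genotype and their scaling, so these values are a description. How they compare with those of other gene pairs was not tested. The genes most like the mean standardized profile of the members, among 7316 genes of at least 10 CPM, were *Rpn8* (r = 0.909 over 9 libraries), which encodes a subunit of the proteasome lid, *Bub3* (0.885), which encodes a spindle checkpoint protein, *ArfGAP3* (0.871), *CG5694* (0.868) and *CG1970* (0.867). These are the top of a ranking of 7316 genes over only 9 libraries, and whether such values exceed those of unrelated genes was not tested. That mean profile was highest in Myc 2 (0.70) and hop 3 (0.67) and lowest in gfp 2 (-0.60), in units of SD.

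The remaining steps of the pathway did not pass the test either. *PyK*, the pyruvate kinase, measured 117, 134 and 152 CPM in gfp. It measured 129, 148 and 147 CPM in hop (log2 fold change 0.07, adjusted p = 0.785) and 139, 184 and 142 CPM in Myc (0.20, adjusted p = 0.589). *Pglym78*, the phosphoglycerate mutase, had 18.5 to 28.4 CPM in gfp, 13.2 to 19.1 in hop and 17.9 to 23.6 in Myc, with overlap in each comparison. Of 12 paralogs of glycolytic enzymes, 11 were tested, with median log2 fold changes of 0.38 in hop and 0.04 in Myc. Among all tested genes, 3.58% were called higher in hop than in gfp and 3.34% higher in hop than in Myc. *CG7069*, a paralog of pyruvate kinase, was the only one called, at 21.8 to 30.0 CPM in gfp and 40.5 to 53.4 in hop (log2 fold change 0.78, adjusted p = 0.0470). That call was lost without any 1 of gfp 1, gfp 2, gfp 3, hop 1, hop 2, hop 3 or Myc 3 (adjusted p = 0.0546 to 0.174), with upper quartile scaling and with the filter of 10 counts per library, so that 12 of 21 alternatives kept it, while its level in hop was also above that in Myc (1.12, adjusted p = 0.0115), a call that 21 of 21 alternatives kept.

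Supply and regulation of the pathway were examined by lists of other genes. None of 6 sugar transporters was called in any comparison. *Glut1*, the most abundant of them, measured 130 to 143 CPM in gfp, 114 to 126 in hop and 99.7 to 125 in Myc (log2 fold changes -0.20 and -0.30, adjusted p = 0.327 and 0.258), and *Tret1-1*, a trehalose transporter, measured 35.5 to 36.1 CPM in gfp, 39.8 to 72.5 in hop and 38.2 to 48.8 in Myc (0.62, adjusted p = 0.0742, and 0.32, adjusted p = 0.544). None of 8 genes of trehalose and glycogen metabolism was called, including *GlyP*, the glycogen phosphorylase (0.14 in hop and 0.25 in Myc), and *GlyS*, the glycogen synthase (-0.05 and 0.28). None of 12 genes for regulators of glycolytic genes was called, including *sima*, the fly HIF-1 alpha subunit (0.32 in hop, adjusted p = 0.131, and 0.06 in Myc), and the co-repressor gene *gro* (-0.17 and -0.01). The median log2 fold changes in hop and Myc were 0.51 and 0.20 for the transporters, 0.07 and 0.17 for trehalose and glycogen, and 0.15 and 0.04 for the regulators. At an unadjusted p under 0.05 these 3 lists had 1, 3 and 2 genes in hop, 1, 0 and 2 in Myc, and 0, 2 and 0 in hop against Myc, beside 25.0%, 14.2% and 24.7% of all genes in these comparisons.

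Genes that draw on intermediates of glycolysis included some that did pass. *CG8036*, which encodes transketolase of the pentose phosphate pathway, rose from 275, 282 and 312 CPM in gfp to 354, 410 and 397 in hop (log2 fold change 0.42, adjusted p = 0.0345) and 442, 453 and 401 in Myc (0.58, adjusted p = 0.0112), and was the only one of 7 genes of that pathway to be called in either comparison. *CG1516*, which encodes pyruvate carboxylase, rose from 26.7, 31.8 and 29.3 CPM in gfp to 41.6, 57.8 and 48.4 in hop (0.75, adjusted p = 0.0191) and 55.2, 52.1 and 58.7 in Myc (0.92, adjusted p = 0.00865), the only one of 5 genes of gluconeogenesis and its control. Among all tested genes, 3.58% were called higher in hop and 2.21% in Myc, each against gfp. The medians of these lists in hop and Myc were -0.15 and 0.09 for the pentose phosphate pathway and 0.69 and -0.07 for gluconeogenesis and its control. Both genes had all 6 libraries of winner cells above all control libraries, where 14.8% of all genes lay wholly above control in hop and 10.8% in Myc. The call of *CG8036* in hop was lost without gfp 1, gfp 2, gfp 3, hop 2 or hop 3 (adjusted p = 0.0711 to 0.145) and with upper quartile scaling, and in Myc without gfp 1 or gfp 2 (0.0763 to 0.0851) or without both gfp 1 and Myc 1. That of *CG1516* was lost in hop without gfp 1, gfp 2, gfp 3 or hop 3 (0.0537 to 0.0787) and in Myc without gfp 1 or gfp 2 (0.0502 to 0.0629).

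Among 9 genes that carry pyruvate into mitochondria and oxidize it, *l(1)G0334*, which encodes the alpha subunit of the E1 part of pyruvate dehydrogenase, rose in hop (0.81, adjusted p = 0.0474). Its levels were 55.6, 119 and 64.5 CPM in hop and 41.5 to 50.9 CPM in gfp, so hop 2 stood far above the other hop libraries, and the call was lost without gfp 1, gfp 2, gfp 3, hop 2, hop 3 or Myc 3 (0.0546 to 0.170), with upper quartile scaling, the filter of 10 counts, limma-voom and the robust spread, so that 11 of 21 alternatives kept it. *CG11876*, which encodes the beta subunit of the same part, measured 44.8 to 55.3 CPM in gfp, 33.6 to 38.6 in hop and 42.2 to 68.6 in Myc. It was not called in hop against gfp (-0.50, edgeR adjusted p = 0.114). All its hop libraries lay below control, as for 16.5% of all genes. It was called lower in hop than in Myc (-0.66, adjusted p = 0.0492). That call was lost on leaving out any library except Myc 1 (0.0588 to 0.220) and with RLE scaling or limma-voom. It was also lost with only the 6 libraries compared and with the reads recovered from the normalized table, so that 9 of 21 alternatives kept it. The median of the list was 0.06 in hop and 0.16 in Myc. None of the 9 genes was called in Myc against gfp, with 2 at an unadjusted p under 0.05, beside 14.2% of all genes. Among all tested genes, 3.58% were called higher in hop than in gfp and 3.24% lower in hop than in Myc.

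Of 7 genes of the shuttles that carry NADH electrons into mitochondria, 2 rose in Myc, where 2.21% of all genes were called higher. *Mdh2*, the mitochondrial malate dehydrogenase, which is also an enzyme of the TCA cycle, rose from 30.6, 27.8 and 36.9 CPM in gfp to 68.6, 62.2 and 61.4 in Myc (log2 fold change 1.01, adjusted p = 0.00865), a call lost without gfp 1 or gfp 2 (0.0577 to 0.0739). *Got2*, the mitochondrial aspartate aminotransferase, rose from 45.2, 39.6 and 41.9 CPM in gfp to 66.1, 70.9 and 70.2 in Myc (0.71, adjusted p = 0.0229), a call lost without gfp 1, gfp 2, gfp 3, Myc 2 or Myc 3 (0.0648 to 0.149). *Got2* was also lower in hop than in Myc (-0.62, adjusted p = 0.0304), which was lost without gfp 2, gfp 3, hop 1, hop 2, Myc 2 or Myc 3 (0.0515 to 0.111) and with only the 6 libraries compared. The median of the list was 0.08 in hop and 0.31 in Myc. None of the 7 was called in hop against gfp, with 2 at an unadjusted p under 0.05, beside 25.0% of all genes.

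The TCA cycle, which oxidizes the acetyl-CoA made from pyruvate, was followed in 15 genes, and 5 of them rose in Myc. *CG6439*, a subunit gene of NAD-dependent isocitrate dehydrogenase, rose from 51.8, 59.4 and 58.4 CPM in gfp to 106, 115 and 105 in Myc (0.94, adjusted p = 0.00478). *CG5028* (0.84, adjusted p = 0.00509) and *l(1)G0156* (0.82, adjusted p = 0.00539), which encode other subunits of that enzyme, and *kdn*, the citrate synthase (0.85, adjusted p = 0.00732), rose as well. *Acon*, the aconitase, was the fifth (0.49, adjusted p = 0.0434), and is named because it completes the count. All 15 genes had log2 fold changes above 0, from 0.18 to 0.94 with a median of 0.48 beside -0.04 over all genes, and 12 had Myc libraries wholly above control. Over all genes 2.21% were called higher and 10.8% lay wholly above control. The count of 5 became 3 without gfp 1 and 2 without gfp 2, and 7 by DESeq2. *CG6439* and *l(1)G0156* kept their calls in all 21 alternatives, *CG5028* lost its call without gfp 2 (0.0517), *kdn* without gfp 1 or gfp 2 (0.0502 to 0.0577) and *Acon* without gfp 1, gfp 2, gfp 3, Myc 2 or Myc 3 (0.0692 to 0.232) and with upper quartile scaling. Without both gfp 1 and Myc 1, *kdn* and *Acon* were not called. In hop, 1 of the 15 rose, *kdn* (0.53, adjusted p = 0.0450, lost without gfp 1, gfp 2, gfp 3, hop 1, hop 2, hop 3 or Myc 3 at 0.0518 to 0.131, and with upper quartile scaling), and the median was 0.11 beside -0.02 over all genes. That count of 1 became 3 without Myc 1, 2 without hop 1 or Myc 2, and 0 without gfp 1 and Myc 1. Among all tested genes, 3.58% were called higher in hop than in gfp. In hop against Myc, *CG5028* was lower in hop (-0.97, adjusted p = 0.00100, kept in all 21 alternatives), as was *CG6439* (-0.55, adjusted p = 0.0411, lost without gfp 1, gfp 2, gfp 3, hop 1, hop 2, Myc 2 or Myc 3 at 0.0541 to 0.155, and with only the 6 libraries or the recovered reads). That count of 2 became 3 without hop 3, 4 without Myc 1 and 5 without gfp 1 and Myc 1. Among all tested genes, 3.24% were called lower in hop than in Myc. The difference between the glycolysis list and the TCA list was not tested.

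**Figure D5:**
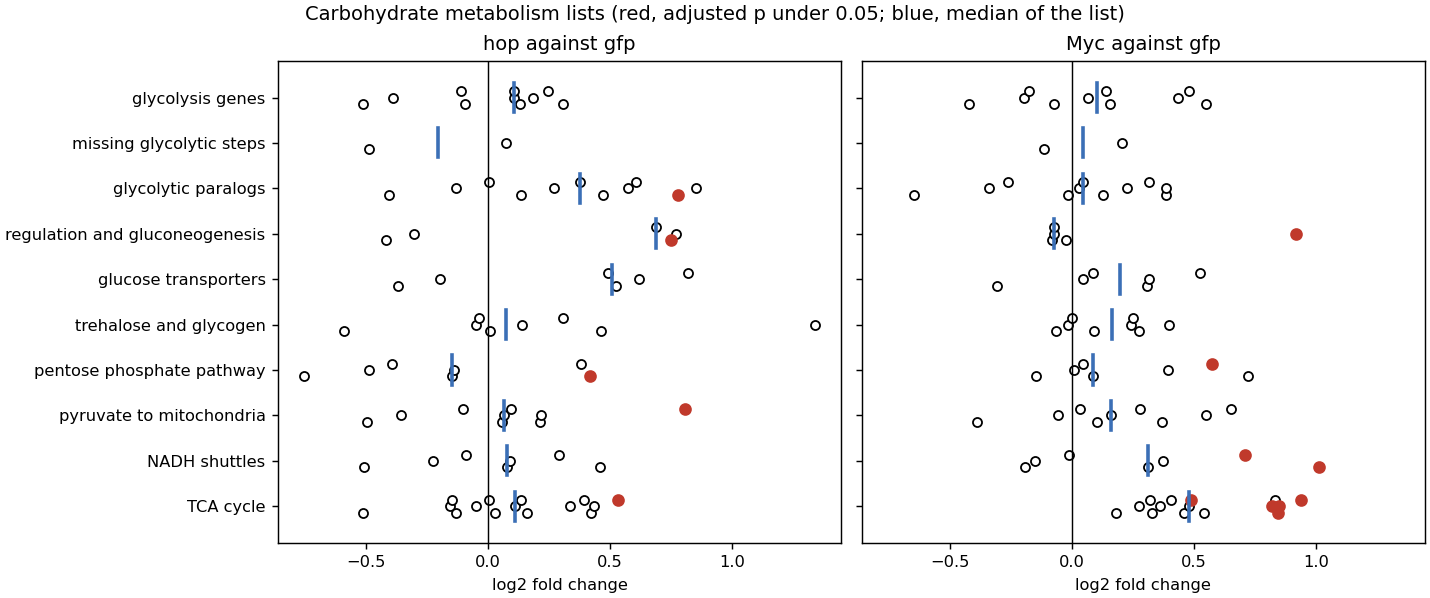
Log2 fold change of every tested gene of the glycolysis list and of 9 related lists in hop against gfp (left) and Myc against gfp (right). Each circle is a gene, filled red where its adjusted p was under 0.05, and the blue bar is the median of the list; no circle of the glycolysis list is filled, while 5 of the TCA cycle are filled in Myc and 1 in hop.

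Signs of other cells in the sorted material were measured beside these values. In sorted populations, fewer cells of a type and less RNA per cell cannot be told apart. The summed markers of adult muscle precursors (5 genes) were 116 to 155 CPM in gfp, 138 to 179 in hop and 103 to 147 in Myc, and those of haemocytes (4 genes) were 38.9 to 52.9, 55.5 to 58.2 and 35.9 to 58.3 CPM. The opposite calls within these lists in hop against gfp were *Mef2* higher (log2 fold change 0.65, adjusted p = 0.0347) and *zfh1* lower (-0.90, adjusted p = 0.0260) for muscle precursors, and *Hml* higher (1.23, adjusted p = 0.0119) and *Pxn* lower (-1.69, adjusted p = 0.00838) for haemocytes. Markers of trachea (3 genes) summed to 501 to 574 CPM in hop, 319 to 344 in gfp and 312 to 360 in Myc. That sum followed *verm* alone, which rose from 227 CPM in gfp to 440 in hop (0.96, adjusted p = 0.000240) and was also higher in hop than in Myc (0.91, adjusted p = 0.000257), whereas *trh* was at 0.07 (adjusted p = 0.865) and *btl* at -0.58 (adjusted p = 0.195) in hop against gfp. Markers of fat body (3 genes) were 19.0 to 25.6 CPM in gfp, 8.06 to 15.2 in hop and 17.5 to 27.1 in Myc, with *Fbp1* lower in hop than in Myc (-1.69, adjusted p = 0.0438), and *Ubx*, a peripodial marker, was 13.4 to 22.5, 2.80 to 22.3 and 15.7 to 21.9 CPM. Posterior markers were 122 to 133 CPM in gfp, 94.6 to 113 in hop and 72.0 to 82.7 in Myc, where *inv* was lower than in gfp (-0.85, adjusted p = 0.00978), and the anterior marker *ci* was higher in hop than in gfp (0.43, adjusted p = 0.0389) and than in Myc (0.43, adjusted p = 0.0414). Of these calls only those of *verm* held with every library left out in turn; *Mef2* and *zfh1* lost theirs without gfp 1, gfp 2, gfp 3, hop 1 or hop 3 (0.0574 to 0.150), *Hml* without gfp 2, gfp 3 or hop 3 (0.0514 to 0.0773), *Pxn* without gfp 2 or hop 3 (0.0509 to 0.0612) and *inv* without gfp 1 or gfp 2 (0.0589 to 0.0666). *Fbp1* lost its call without any library but gfp 1 or Myc 1 (0.0576 to 0.171), *ci* against gfp without gfp 1, gfp 2, gfp 3, hop 2 or hop 3 (0.0626 to 0.167), and *ci* against Myc without any library but hop 1 or Myc 1 (0.0578 to 0.126). No marker was at 0 in any group, and the part of these cells in the levels of the glycolytic genes was not tested.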

How the data were processed

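RNA-seq of 9 libraries (3 each of gfp, hop and Myc) was used. The deposited raw counts were made by the authors, who aligned reads to dm6 with STAR, removed PCR duplicates with Picard and counted reads on exons with HTSeq. For tool versions, annotation release, strand and pools: not given in the sources used here. Labels state polyA RNA and the paper total RNA, and the labels *w/+* and the paper *w/w*. The deposited normalized table holds a signal, counts that the authors divided by a size factor; multiplied back, 100% of its non-zero values came within 0.02 of whole numbers of reads. These are not the raw table throughout (*Ald* has equal reads in 3 of 9 libraries, *Gapdh1*, *Pgk* and *Eno* in 7, *Tpi* and *Gapdh2* in 8, the other members in 9), and the count test on those reads is an alternative, which called 882 genes in hop against gfp, 312 in Myc against gfp and 760 in hop against Myc. Reads carry no molecular identifiers.

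Genes kept by filterByExpr (12741) were tested on the raw counts with edgeR 4.0.16 by quasi-likelihood (R 4.3.3), TMM scaling, genotype as the only factor, p-values adjusted over all genes (Benjamini-Hochberg) and 6 residual degrees of freedom. The labels number the libraries 1 to 3, but these numbers were not taken to pair them. Alternatives used DESeq2 1.42.0, limma 3.58.1, other scalings, filters and samples. The script was tested on simulated data. Intervals of 95% are the log2 fold change plus or minus a t quantile times its SE, which was taken from the F statistic. Exon lengths and coordinates are from the BDGP6 annotation, to which list genes were matched by symbol or synonym. CPM per kb divides CPM by the bases of all annotated exons of a gene.

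The members and lists were chosen with earlier results of these data known. All 10 members are named. From the other lists, called genes are named (up to 4 per list and comparison, smallest p first) or, where none was called, the 2 most abundant; *PyK*, *Pglym78*, *hop* and *dm* always, and the 5 genes most correlated with the mean profile. *Pepck1* is not analysed here.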

Additional observations from a re-analysis of the deposited data

How the results depend on the processing

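Each result was recomputed under 22 alternatives, of which the robust spread and the newer quasi-likelihood method of edgeR were chosen after seeing the data; ranges of adjusted p cover 21 and leave out the test against 1.5-fold. No member was called with a 1.5-fold threshold added. For hop against gfp, the count of 0 called members became 1 (*Pfk*, lower) with upper quartile scaling (adjusted p = 0.0445), with only the 6 libraries compared (0.0204), and without gfp 1 and Myc 1 (0.0252), and was 0 to 1 when single libraries were left out. For Myc against gfp it became 1 (*Eno*) with at least 10 counts in every library (0.0268), by DESeq2 (0.0105), with only the 6 libraries compared (0.0366) and with a robust spread (0.0475), and was 0 to 1 when single libraries were left out. For hop against Myc it was 0 with each library left out.

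Deviations of same-numbered libraries from their group means correlated at 0.0714 to 0.249 between gfp and hop, 0.0944 to 0.392 between gfp and Myc and -0.140 to 0.180 between hop and Myc. Libraries with different numbers were not compared in this way, so these values do not settle whether the numbers pair the libraries. With the replicate block, 1 member (*Pfk*, adjusted p = 0.0324) was called in hop against gfp, 2 (*Ald*, 0.0249, and *Eno*, 0.0433) in Myc against gfp and 1 (*Ald*, 0.0371) in hop against Myc.

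Of 660 alternative values for single genes, 639 kept their direction and side of the threshold, 14 passed it anew, and 7 changed sign, all near 0 and not called. Without gfp 1 and Myc 1, *Pgi* was at 0.0077 and *Pgk* at 0.00089 in hop against gfp. When single libraries were left out, the log2 fold change of *Hex-A* in hop against Myc ran from -0.092 (without hop 3) to 0.19, that of *Pfk* in hop against Myc from -0.23 to 0.084 (without Myc 2), that of *Ald* in hop against gfp from -0.019 (without hop 3) to 0.25 and that of *ImpL3* in hop against gfp from -0.095 (without hop 1) to 0.33. Counts over all genes moved by more than 1.5 times: in hop against gfp from 910 to 1693 with only the 6 libraries and to 119 without gfp 3, in Myc against gfp from 338 to 578 by DESeq2 and to 57 without gfp 2, and in hop against Myc from 838 to 1771 with the replicate block and to 2500 without Myc 1.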
